A study of Mus musculus with 6 samples.

Results

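The insulin-like growth factor (IGF) axis was followed through 10 genes in mouse lung cells labelled alveolar epithelial type II (AT2): 2 ligands (Igf1, Igf2), 3 receptors (Igf1r, Igf2r, Insr) and 5 binding proteins (Igfbp3 to Igfbp7). They were taken by symbol from a count table of 52550 gene symbols, and all 10 were found and passed the filter on low counts, among 18849 genes that did. The study compared 3 control libraries with 3 libraries labelled Grp78 knockout. All came from C57BL/6 lungs digested with dispase, from which cells positive for EPCAM and negative for CD45 were sorted magnetically. Every mouse, controls included, carried Sftpc+/creERT2 (a tamoxifen-inducible Cre at the surfactant protein C locus, active in AT2 cells) and Grp78f/f, and by genotype label the controls were without tamoxifen (Tmx) and the others with it. The label of days gives 10 days after a Tmx injection for all 6 samples, so whether controls were injected is in doubt, and Tmx and the deletion cannot be told apart. Age and sex were not in the labels used here, and the labels do not state whether each replicate was its own animal. The p-values therefore cover only the spread between these libraries, which may be technical.

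IGF1 and IGF2 are secreted growth factors that act through IGF1R, a receptor tyrosine kinase closely related to the insulin receptor INSR. IGF2R has no kinase and removes IGF2 from the cell surface, besides carrying lysosomal enzymes. The binding proteins hold IGFs in the extracellular space and either shield them from the receptor or deliver them, and proteases such as PAPP-A release the IGFs again. In the lung, IGF1 is made largely by mesenchymal cells and macrophages, while the alveolar epithelium carries the receptors.

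The libraries held 110770711 to 149520306 counts. Hspa5, which encodes the deleted chaperone GRP78, was at 1355, 1288 and 925 CPM in controls 1, 2 and 3 and at 9262, 9180 and 3809 CPM in libraries 1, 2 and 3 labelled knockout (CPM, counts scaled to a common library size by TMM, the level used throughout). It was thus higher in every library whose label names its loss (edgeR adjusted p = 0.00208, log2 fold 2.64, SE 0.361). The counts are per gene and cannot show the floxed exons, and directions below are between libraries as labelled. Library 3 labelled knockout stood apart: Hspa5 was lowest there of the 3, and Ptprc, which encodes CD45, was at 10.99 CPM against 0.963 to 2.07 CPM in the other 5. Markers of AT2 cells were present in all libraries, with summed levels of 149400 to 174000 CPM in controls and 57170 to 74130 CPM in the libraries labelled knockout. The club cell gene Scgb1a1 was also abundant, at 26140 to 48330 CPM in controls and 26910 to 30130 CPM in the others, where it exceeded the AT2 gene Sftpc (14460 to 18610 CPM) in each library. The libraries thus held RNA of airway as well as alveolar epithelium.

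Of the 10 genes, 3 rose (Igf1, Igfbp4 and Igfbp5) and 5 fell (Igf2, Igf2r, Insr, Igfbp6 and Igfbp7) in the libraries labelled knockout, at an adjusted p under 0.05. Igf1r and Igfbp3 did not pass. Among all genes tested, 18.0% were called higher and 18.8% lower. The groups did not overlap for 8 of the 10 genes, against 51.6% of all genes tested. The median log2 fold of the 10 was -0.29, and that of all tested genes 0.02. By role, 1 ligand rose and 1 fell, 2 of 3 receptors fell, and 2 binding proteins rose while 2 fell. Without library 3 labelled knockout, 4 rose and 6 fell, Igfbp3 and Igf1r being the additions. Calls also grew over the whole table then, to 4242 higher and 4306 lower of 19247 genes tested. With all 6 libraries they were 3391 and 3547 of 18849.

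**Figure D1:**
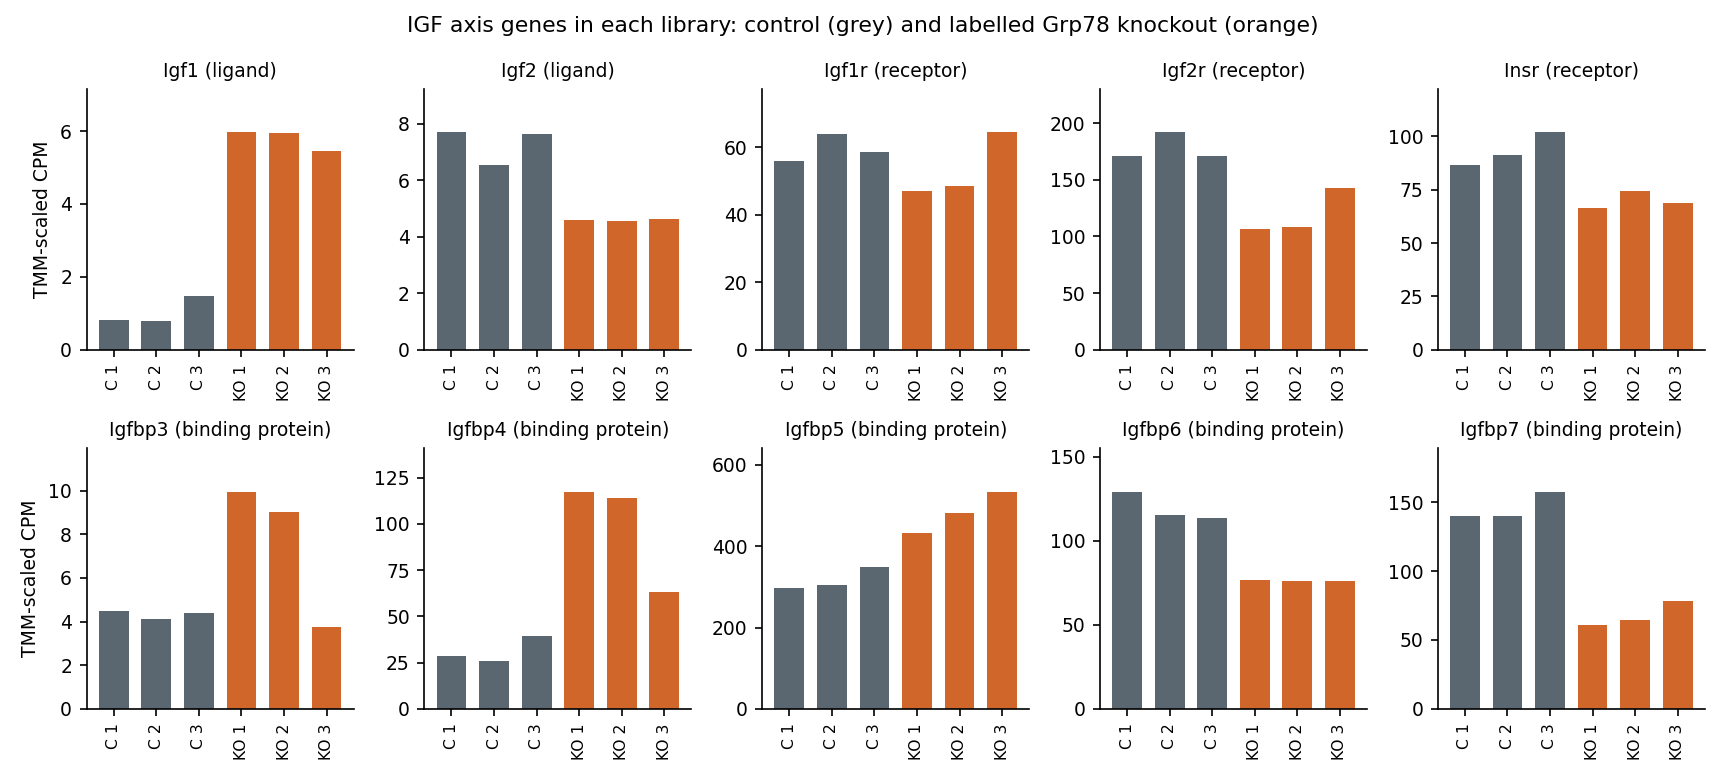
Bars give the TMM-scaled CPM of each IGF axis gene in each library (C, control, grey; KO, labelled Grp78 knockout, orange), on a linear axis from 0 that differs between panels. Igf1 stood at 5.45 to 5.97 CPM in the orange bars against 0.791 to 1.46 CPM in the grey, while Igfbp3 was above all controls in KO 1 and KO 2 and below all of them in KO 3.

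The ligands moved in opposite directions. Igf1 (chromosome 10, 87858265 to 87937042, plus strand, mm10) was at 0.825, 0.791 and 1.46 CPM in controls 1, 2 and 3, and at 5.97, 5.96 and 5.45 CPM in libraries 1, 2 and 3 labelled knockout. The groups were far apart, with control 3 the highest control and the other 3 libraries close together. The rise was 5.64-fold (log2 fold 2.49, SE 0.260, edgeR adjusted p = 0.000855), from 94, 107 and 191 counts to 811, 709 and 769.

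Igf2 (chromosome 7, 142650766 to 142666816, minus strand), the fetal growth factor expressed from the paternal allele, was at 7.70, 6.53 and 7.66 CPM in controls 1, 2 and 3. Libraries 1, 2 and 3 labelled knockout had 4.60, 4.56 and 4.61 CPM. All 3 of these were below every control and nearly equal (log2 fold -0.67, SE 0.119, edgeR adjusted p = 0.0054). Of its exonic bases, 62.83% are also exons of the coding gene model Gm49394 on the same strand, which was not analysed here, and 1.71% of the antisense gene Igf2os. How the counting treated shared exons is not given in the sources used here, so the level of Igf2 is uncertain.

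Per kilobase of annotated exon, controls held more Igf2 than Igf1 RNA, at 1.27 ± 0.116 and 0.104 ± 0.0382 CPM per kb (SD, n = 3). In the libraries labelled knockout Igf2 was at 0.803 ± 0.00471 and Igf1 at 0.585 ± 0.0298 CPM per kb (SD, n = 3). Igf1 therefore made up 5.83%, 6.54% and 9.94% of the summed per-kb level of the ligands in controls and 42.8%, 43.0% and 40.6% in those labelled knockout. The sum itself was 1.22 to 1.49 CPM per kb in controls and 1.36 to 1.41 CPM per kb in the others, with overlapping ranges.

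Among the receptors, Igf2r and Insr fell modestly and Igf1r did not pass. Igf2r (chromosome 17, 12682406 to 12769664, minus strand) was at 171, 192 and 171 CPM in controls 1, 2 and 3 and at 107, 109 and 143 CPM in libraries 1, 2 and 3 labelled knockout. No library labelled knockout reached the lowest control, and library 3 was the nearest to it (log2 fold -0.58, SE 0.135, edgeR adjusted p = 0.0145). The call ended without control 2 (edgeR adjusted p = 0.0584) and without library 1 or 2 labelled knockout (edgeR adjusted p = 0.0561 and 0.0649).

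Insr (chromosome 8, 3122061 to 3279617, minus strand) was at 86.7, 91.2 and 102 CPM in controls and at 66.5, 74.3 and 68.6 CPM in the libraries labelled knockout. The groups did not overlap (log2 fold -0.42, SE 0.095, edgeR adjusted p = 0.013). The call ended without library 1 labelled knockout, with little change in the log2 fold (-0.38, edgeR adjusted p = 0.058). Without control 2 it was at the threshold (edgeR adjusted p = 0.0498). Igf1r (chromosome 7, 67952827 to 68233668, plus strand), the receptor through which both ligands signal, was at 55.9, 64.1 and 58.5 CPM in controls and at 47.1, 48.5 and 64.4 CPM in libraries 1, 2 and 3 labelled knockout. Libraries 1 and 2 lay below all controls and library 3 above all of them (log2 fold -0.16, SE 0.134, edgeR adjusted p = 0.387). Without library 3 it was called lower (log2 fold -0.32, edgeR adjusted p = 0.0227).

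The receptor folds depend on the scaling. With library size alone in place of TMM, the median tested gene moved from a log2 fold of 0.02 to 0.27, Igf1r moved to 0.11, and Igf2r (-0.31) and Insr (-0.17) were no longer called (edgeR adjusted p = 0.151 and 0.299). Of the summed per-kb level of the receptors, Igf2r took 62.8% to 66.4% in controls and 58.5% to 63.5% in those labelled knockout, which overlap. Igf1r took 11.9% to 12.3% in controls and 14.4% to 15.9% in the others, without overlap. These shares do not depend on the scaling between libraries. Of all calls, 48.9% were higher with TMM, 59.2% with upper-quartile factors and 82.2% with library size alone. With the last of these 4 of the 10 genes rose and 3 fell, against 6218 and 1343 of all 18849 genes tested.

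**Figure D2:**
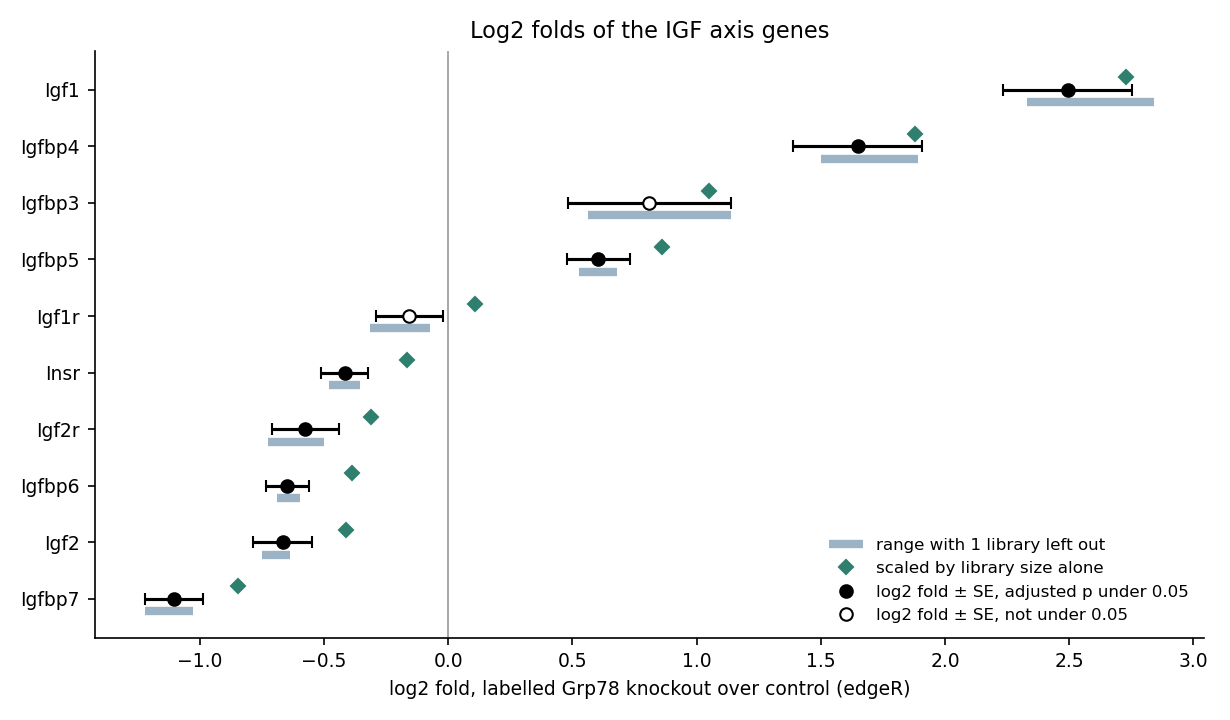
Points give the edgeR log2 fold of each gene, labelled Grp78 knockout over control, with its standard error; bars beneath span the values with any 1 library left out, and diamonds the value when scaled by library size alone. Igf1r is the gene whose diamond (0.11) lies on the other side of 0 from its point (-0.16).

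The binding proteins split. Igfbp4 rose most, Igfbp5 rose less, and Igfbp6 and Igfbp7 fell. The 250 bases before the RefSeq start (build GRCm38.p6) of the gene that rose most, of the other one that rose and of the one that fell most are shown to set their promoters side by side, 5′ to 3′ on the gene's strand, with motif matches in capitals. They are chr11:99040994-99041243 on the plus strand for Igfbp4, chr1:72874866-72875115 on the minus strand for Igfbp5, and chr5:77408046-77408295 on the minus strand for Igfbp7.
Igfbp4: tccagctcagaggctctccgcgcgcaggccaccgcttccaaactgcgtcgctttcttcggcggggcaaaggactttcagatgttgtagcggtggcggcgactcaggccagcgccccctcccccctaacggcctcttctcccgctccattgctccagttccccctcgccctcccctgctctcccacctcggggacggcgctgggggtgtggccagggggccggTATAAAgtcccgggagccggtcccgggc
Igfbp5: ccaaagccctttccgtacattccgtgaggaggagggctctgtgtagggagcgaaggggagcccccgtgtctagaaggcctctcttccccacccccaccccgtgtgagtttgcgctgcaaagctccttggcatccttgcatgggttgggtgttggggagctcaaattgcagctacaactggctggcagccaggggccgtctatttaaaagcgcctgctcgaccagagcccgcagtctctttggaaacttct
Igfbp7: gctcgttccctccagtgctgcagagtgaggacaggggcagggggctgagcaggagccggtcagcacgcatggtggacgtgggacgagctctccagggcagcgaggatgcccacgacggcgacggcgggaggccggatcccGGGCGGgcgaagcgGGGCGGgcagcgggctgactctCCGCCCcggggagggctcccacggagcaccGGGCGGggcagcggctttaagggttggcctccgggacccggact

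The motifs searched on both strands were the TATA box (TATAAA, in 12.4% of 32817 windows of this length), the GC box (GGGCGG, 32.7%), the CCAAT box (CCAAT, 33.8%), the core of the C/EBP-ATF response element (TGATGNAA, 3.45%), a FOXO element (GTAAACA, 3.16%) and the ER stress element (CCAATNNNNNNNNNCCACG, 0.113%), whose first letters are also a CCAAT box. Igfbp4 held 1 TATA box, 28 bases before the start. Igfbp7 held 4 GC boxes, 110, 96, 74 and 44 bases before the start, the one at 74 on the opposite strand. The GC content was 69.2% for Igfbp4, 58.8% for Igfbp5 and 74.0% for Igfbp7, and the Igfbp5 window held no exact match to a motif searched. Variants of the motifs were not searched, so Igfbp5 may still hold a TATA-like element. Windows were found for 9 of the 10 genes, and no match to the C/EBP-ATF, FOXO or ER stress motif was found in them.

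Igfbp4 (chromosome 11, 99041244 to 99054392, plus strand) encodes a binding protein that blocks IGF action until it is cut by PAPP-A. It was at 28.8, 26.0 and 39.1 CPM in controls 1, 2 and 3 and at 117, 114 and 63.2 CPM in libraries 1, 2 and 3 labelled knockout. All 3 of these exceeded every control, but library 3 was well below the other 2. The rise was 3.14-fold (log2 fold 1.65, SE 0.260, edgeR adjusted p = 0.00363).

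Igfbp5 (chromosome 1, 72857932 to 72874884, minus strand), the most conserved of the family and a binder of extracellular matrix, was at 298, 306 and 348 CPM in controls 1, 2 and 3. It was at 433, 481 and 534 CPM in libraries 1, 2 and 3 labelled knockout. The groups did not overlap, and here library 3 labelled knockout was the highest (log2 fold 0.60, SE 0.126, edgeR adjusted p = 0.00949). Without control 2 the call ended (edgeR adjusted p = 0.0553).

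Igfbp3 (chromosome 11, 7206086 to 7213923, minus strand), the main carrier of IGFs in serum, was at 4.48, 4.11 and 4.37 CPM in controls and at 9.95, 9.04 and 3.73 CPM in libraries 1, 2 and 3 labelled knockout. Libraries 1 and 2 were more than 2 times any control, and library 3 was below all controls. The log2 fold of 0.81 (SE 0.328) did not pass (edgeR adjusted p = 0.0891), and without library 3 it was 1.14 (SE 0.109, edgeR adjusted p = 0.000381). DESeq2 called it with all 6 libraries (adjusted p = 0.0229), and so did edgeR with library-size scaling (adjusted p = 0.035).

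Igfbp6 (chromosome 15, 102144362 to 102149511, plus strand), which binds IGF2 in preference to IGF1, was at 129, 115 and 113 CPM in controls 1, 2 and 3. Libraries 1, 2 and 3 labelled knockout had 76.6, 75.8 and 75.9 CPM. These 3 were nearly equal and all below the controls (log2 fold -0.65, SE 0.0862, edgeR adjusted p = 0.00185).

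Igfbp7 (chromosome 5, 77349240 to 77408041, minus strand), a secreted relative with low affinity for IGFs, was at 140, 140 and 158 CPM in controls 1, 2 and 3 and at 61.0, 64.8 and 78.0 CPM in libraries 1, 2 and 3 labelled knockout. The highest of these was well under the lowest control. The fall was 2.15-fold (log2 fold -1.10, SE 0.117, edgeR adjusted p = 0.000897). Of its exonic bases, 7.03% overlap exons of Polr2b on the opposite strand.

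Per kilobase of exon, the order of the 3 most abundant binding proteins turned over. In controls Igfbp7 stood at 121 ± 8.35, Igfbp6 at 107 ± 7.77 and Igfbp5 at 52.8 ± 4.50 CPM per kb (SD, n = 3), the first pair with overlapping ranges. In the libraries labelled knockout Igfbp5 stood at 80.3 ± 8.46, Igfbp6 at 68.4 ± 0.414 and Igfbp7 at 56.2 ± 7.41 CPM per kb (SD, n = 3), with no overlap between neighbours. The lengths are of all annotated exons joined, so the order could change if cells used only some of them.

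As a share of the summed per-kb level of these 5 genes, Igfbp7 was 41.7% ± 1.69 in controls and 24.4% ± 2.43 in the other group (SD, n = 3). Igfbp5 went from 18.2% ± 1.07 to 34.9% ± 2.47, and Igfbp4 from 2.44% ± 0.445 to 9.75% ± 3.25 (SD, n = 3). The sum of the 5 was 278 to 301 CPM per kb in controls and 221 to 237 CPM per kb in the libraries labelled knockout. Below these genes in controls came Igf2r (19.1 CPM per kb), then Igfbp4 (7.09) and Insr (6.79) with overlapping ranges, Igf1r (3.54), and Igfbp3 (1.38) and Igf2 (1.27), again overlapping, with Igf1 last. In the libraries labelled knockout the order below the first 3 was Igfbp4 (22.2 CPM per kb) and Igf2r (12.8), overlapping, Insr (5.08), Igf1r (3.18) and Igfbp3 (2.42), overlapping, then Igf2 and Igf1.

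**Figure D3:**
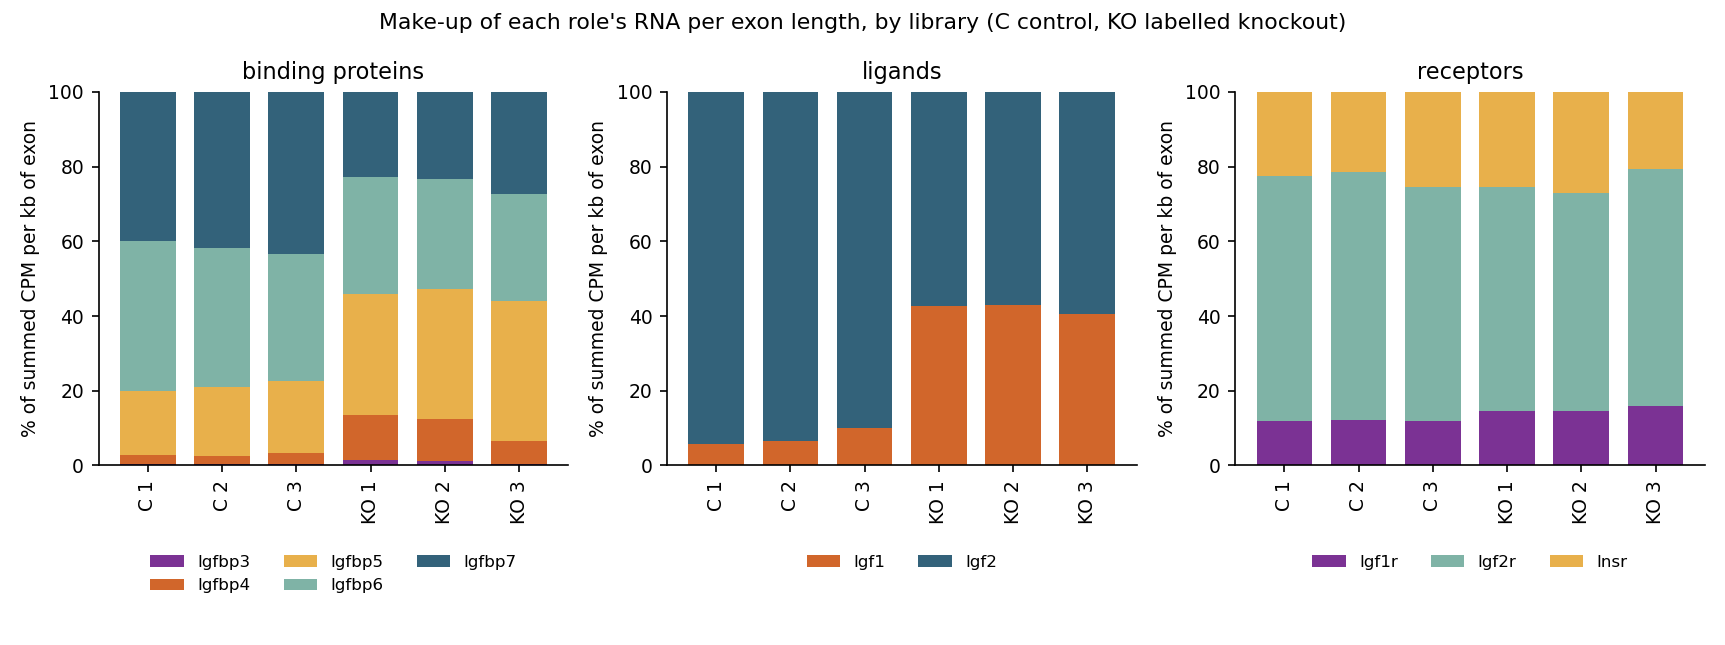
Stacked bars give each gene's percentage of the summed CPM per kb of exon within its role, in each library (C, control; KO, labelled Grp78 knockout). The Igf1 share of the ligands is 5.83% to 9.94% in C and 40.6% to 43.0% in KO, and Igfbp5 is the largest binding protein share in every KO library and in no C library.

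Within the libraries labelled knockout, the genes followed different orders. Against the control mean of log2(CPM + 0.5), Igfbp4 was higher by 1.91 and 1.87 in libraries 1 and 2 and by 1.02 in library 3. Igfbp3 differed by 1.12, 0.99 and -0.19 and Hspa5 by 2.98, 2.97 and 1.70 in libraries 1, 2 and 3. Igfbp7 (-1.25, -1.16 and -0.90) and Igf2r (-0.74, -0.70 and -0.31) also lay nearest to the controls in library 3. Igf1 (2.11, 2.11 and 1.99), Igf2 (-0.61, -0.62 and -0.60) and Igfbp6 (-0.63, -0.65 and -0.65) differed little between the 3, and Igfbp5 was farthest from the controls in library 3 (0.75, against 0.45 and 0.60).

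Markers of other cell types also differed between the groups. Each list count below is to be read beside the 18.0% of all tested genes called higher and the 18.8% called lower. Of 12 fibroblast markers 11 rose, with a median log2 fold of 1.34 and summed levels of 273 to 654 CPM in controls and 1309 to 1435 CPM in the libraries labelled knockout. Control 3 held the highest sum of the controls. It was also the highest control for Igf1, Igfbp4 and Igfbp5, which rose, and for Insr and Igfbp7, which fell. Of 10 smooth muscle and pericyte markers 6 rose, with sums of 31.7 to 36.1 CPM in controls and 72.9, 75.5 and 48.8 CPM in libraries 1, 2 and 3 labelled knockout. Of 7 mesothelial markers 6 rose (sums of 113 to 126 and 198 to 229 CPM), and none of the markers in these 3 lists was at 0 in all libraries. The part of these cells in the rises of Igf1, Igfbp4, Igfbp5 and Igfbp3 was not tested.

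Endothelial markers summed to 634 to 695 CPM in controls and to 974, 1007 and 614 CPM in libraries 1, 2 and 3 labelled knockout, and 1 of 12 passed, Vwf, higher. Their median marker differed from the control mean by 0.53, 0.52 and -0.25 on the log2(CPM + 0.5) scale, low in the same library as Igfbp3. This was not particular to the endothelial list. The smooth muscle and pericyte median (0.98, 1.15 and 0.20) and the mesothelial median (0.81, 0.85 and 0.50) were also lower in library 3 than in libraries 1 and 2. The fibroblast median differed less (1.32, 1.41 and 1.25). Of 16 tested leukocyte markers 2 rose (C1qc and Mrc1) and 1, Lyz1, fell, and the T cell markers Cd3e, Cd4 and Cd8a were below 1 CPM in every library. C1qc was at 0.272, 0.252 and 12.1 CPM in libraries 1, 2 and 3 labelled knockout. The list summed to 2729 to 3127 CPM in controls and 1865 to 1971 CPM in the others, nearly all of it Lyz1. Lyz1 was at 1740 to 3113 CPM while Ptprc reached 10.99 CPM at most, so this sum cannot be read as leukocyte RNA. Without Lyz1, left out after its level was seen, the sums were 14.6 to 23.7 CPM in controls and 17.5, 18.5 and 138 CPM in libraries 1, 2 and 3 labelled knockout. The part of endothelial cells and leukocytes in the levels of the IGF axis genes was not tested.

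All 12 AT2 markers fell, with a median log2 fold of -1.28. The part of AT2 cells in the falls of Igfbp6, Igfbp7, Igf2, Igf2r and Insr was not tested. Of 10 AT1 markers 5 fell and 1, Pdpn, rose, and of 10 airway markers 2 rose (Ccdc153 and Tmem212), where 18.0% of all genes tested rose and 18.8% fell. The airway sums were 31270 to 57750 CPM in controls, lowest in control 3, and 33070 to 36480 CPM in the others. In these bulk samples, fewer cells of a type and less RNA per cell cannot be told apart.

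**Figure D4:**
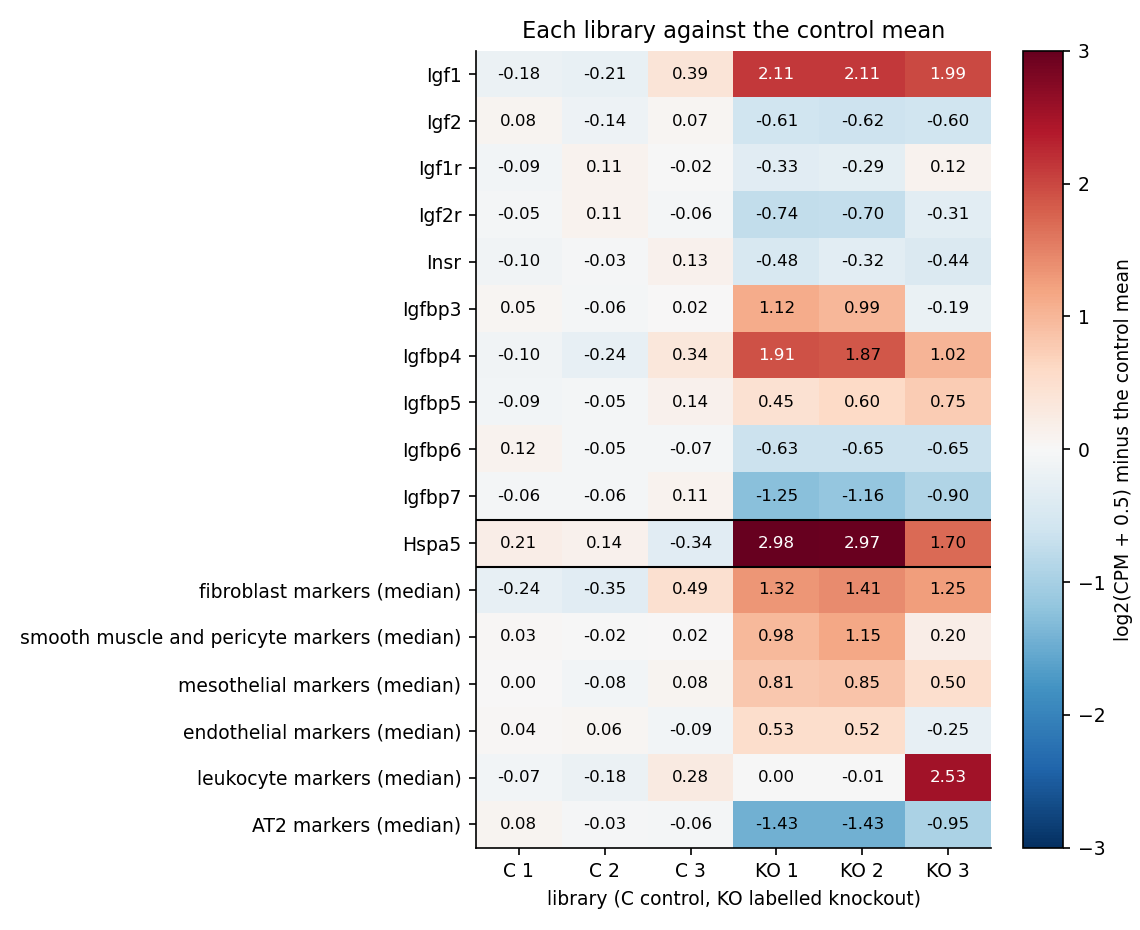
Cells give each library's log2(CPM + 0.5) minus the mean of the 3 controls, for the 10 IGF axis genes, Hspa5 and the median gene of 6 marker lists (C, control; KO, labelled Grp78 knockout; red higher, blue lower). In KO 3 Igfbp3 is at -0.19, the endothelial median at -0.25, the smooth muscle and pericyte median at 0.20 and the leukocyte median at 2.53.

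The genes with the most similar profile were found by the root mean square difference of centred log2(CPM + 0.5) over the 6 libraries, among 13974 tested genes with a mean of at least 1 CPM. For Igf1 they were Axl, a receptor tyrosine kinase gene (difference 0.0929), Olfml3 (0.107) and C330027C09Rik (0.148). Those of Igfbp3 were Nos3, the endothelial nitric oxide synthase gene (0.10), the cyclin-dependent kinase inhibitor gene Cdkn2b (0.101) and Rhoj (0.106). Igfbp4 was nearest to the helicase gene Recql4 (0.121), 1700019D03Rik (0.123) and the eotaxin gene Ccl11 (0.124). Closer matches were found for Igfbp5 (Plxdc2, 0.0378), Igfbp6 (Gm32633, 0.0224) and Igfbp7 (Clstn1, 0.0275). The same held for Igf2 (Creb3l4, 0.0403), Igf1r (Fam13a, 0.0404), Igf2r (Socs7, 0.0262) and Insr (Taf8, 0.0125). With 6 libraries and so many genes, close profiles are common, and the values only describe these libraries.

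Other secreted regulators of IGF binding included a protease and its inhibitor that rose. Stc2, whose product stanniocalcin-2 blocks PAPP-A, was at 1.91, 2.44 and 1.16 CPM in controls and at 44.5, 46.3 and 15.1 CPM in libraries 1, 2 and 3 labelled knockout. The groups were far apart, with library 3 lowest of the 3, as for Igfbp4 (log2 fold 4.26, SE 0.503, edgeR adjusted p = 0.00153). Pappa, the gene of the protease that cuts IGFBP4, was at 0.263, 0.214 and 0.391 CPM in controls and at 1.0, 1.19 and 1.1 CPM in the libraries labelled knockout (log2 fold 1.92, SE 0.298, edgeR adjusted p = 0.00331).

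Of 6 tested genes of that list 2 rose and the other 4 did not pass: Stc1 (log2 fold 0.02, edgeR adjusted p = 0.948), Igfbp2 (0.11, 0.687), Pappa2 (0.10, 0.729) and Igfals (-0.44, 0.12). Igfbp2 was at 7.58 and 8.82 CPM in libraries 1 and 2 labelled knockout and at 12.7 CPM in library 3, against 8.27 to 10.03 CPM in controls. Igfbp1, a hepatic binding protein, had 6 counts in control 2 and 0 in the other 5 libraries, where 0 counts allow up to 0.0213 to 0.0263 CPM if each count is independent, and more if both mates of a fragment were counted. Of 11 tested relatives that share the IGF-binding domain, 6 rose. The largest rise was that of Wisp1, a matricellular gene, with a log2 fold of 4.21 (edgeR adjusted p = 0.000872). Its levels were low, at 0.175, 0.0591 and 0.184 CPM in controls and 2.87, 2.99 and 1.88 CPM in libraries 1, 2 and 3 labelled knockout. Next among the genes named by rule came Cyr61 (1.59), Htra3 (1.08) and Ctgf (0.97). Leaving out control 2 brought the 6 to 3, and the call of Htra3 ended (edgeR adjusted p = 0.052). Over all genes tested, the same step brought the calls higher from 3391 to 1684.

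In a list on receptor signalling, 15 of 27 tested genes fell and 3 rose, with a median log2 fold of -0.35. With the same TMM scaling, 18.8% of all genes tested fell and 18.0% rose. In the list, 2 fell and 4 rose when counts were scaled by library size alone. With that scaling 1343 of all 18849 genes tested fell and 6218 rose, so the excess of falls in the list depends on the scaling. Without control 2, or library 1 or 2 labelled knockout, 5 or 6 fell, and 1 rose without any 1 of the 3 controls or of libraries 1 and 2 labelled knockout. Calls also dropped over all genes tested. Those lower went from 3547 to 2022 without control 2, and to 2019 and 1881 without library 1 or 2 labelled knockout. Those higher went from 3391 to between 1684 and 2723 in the settings where 1 rose. Irs2, an adaptor that links both receptors to PI3-kinase, fell from 129, 151 and 144 CPM in controls to 58.9, 64.5 and 63.8 CPM (log2 fold -1.18, SE 0.0945, edgeR adjusted p = 0.00046). Grb14, an adaptor that inhibits the insulin receptor, fell from 219 ± 24.6 to 95.1 ± 7.78 CPM (SD, n = 3; log2 fold -1.20, edgeR adjusted p = 0.000756). Its relative Grb10, an imprinted gene that also inhibits these receptors, went the other way.

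Grb10 was at 17.9, 17.8 and 20.3 CPM in controls and at 65.7, 73.3 and 37.9 CPM in libraries 1, 2 and 3 labelled knockout. Library 3 was again the lowest of the 3 (log2 fold 1.66, SE 0.230, edgeR adjusted p = 0.00221). The other genes that rose, Shc1 (0.34) and Pik3cb (0.35), were named after their values were seen, and both calls rest on small folds. Irs1 was at 19.9, 24.6 and 32.1 CPM in controls and at 12.1, 13.2 and 23.9 CPM in the libraries labelled knockout (log2 fold -0.64, edgeR adjusted p = 0.118). Blocking on the replicate number gave a log2 fold of -0.68 and an edgeR adjusted p of 0.00661. Pik3ca, a catalytic subunit of PI3-kinase, fell by 0.74 on the log2 scale (edgeR adjusted p = 0.00515), and by 0.48 with library-size scaling (edgeR adjusted p = 0.0525).

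FOXO transcription factors are held out of the nucleus by AKT when insulin and IGF receptors signal. Of 16 tested FOXO factors and known FOXO target genes, 8 fell and 1, Gadd45a (1.47), rose, with a median log2 fold of -0.58. Foxo3 fell by 1.10 and Foxo4 by 1.05 on the log2 scale (edgeR adjusted p = 0.000799 and 0.00109). Among targets, the cyclin G2 gene Ccng2 fell by 1.54 and Cited2 by 1.31 (edgeR adjusted p = 0.00129 and 0.00153). Many of these genes have other regulators, and neither protein nor phosphorylation was measured.

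Of the imprinted neighbours and mRNA-binding proteins of the axis, 2 rose and 1 fell among 7 tested. Over all genes tested, 18.0% rose and 18.8% fell, so these counts do not set the list apart. H19, the non-coding gene beside Igf2 that is expressed from the maternal allele, was at 0.0702, 0.163 and 0.161 CPM in controls and at 0.419, 0.656 and 1.73 CPM in libraries 1, 2 and 3 labelled knockout. It was highest in library 3, and the counts were low, from 8 to 244 (log2 fold 2.82, SE 0.611, edgeR adjusted p = 0.0111). Without that library the log2 fold was 2.01 (edgeR adjusted p = 0.0121). Igf2bp1, which encodes a protein that binds Igf2 mRNA, was below 1.3 CPM in all libraries (log2 fold 0.94, edgeR adjusted p = 0.0282, and 0.0866, 0.0929 and 0.108 without control 1, control 2 or library 2 labelled knockout). Igf2os, antisense to Igf2, fell by 1.01 on the log2 scale (edgeR adjusted p = 0.0471), but its adjusted p ran from 0.0243 to 0.154 over the alternatives. Airn, the antisense RNA within the Igf2r locus that shares no exon with it, did not pass at a log2 fold of -0.51 (edgeR adjusted p = 0.0628). Blocking on the replicate number gave 0.0362. Without strand its reads cannot be told apart from unspliced Igf2r RNA.

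**Figure D5:**
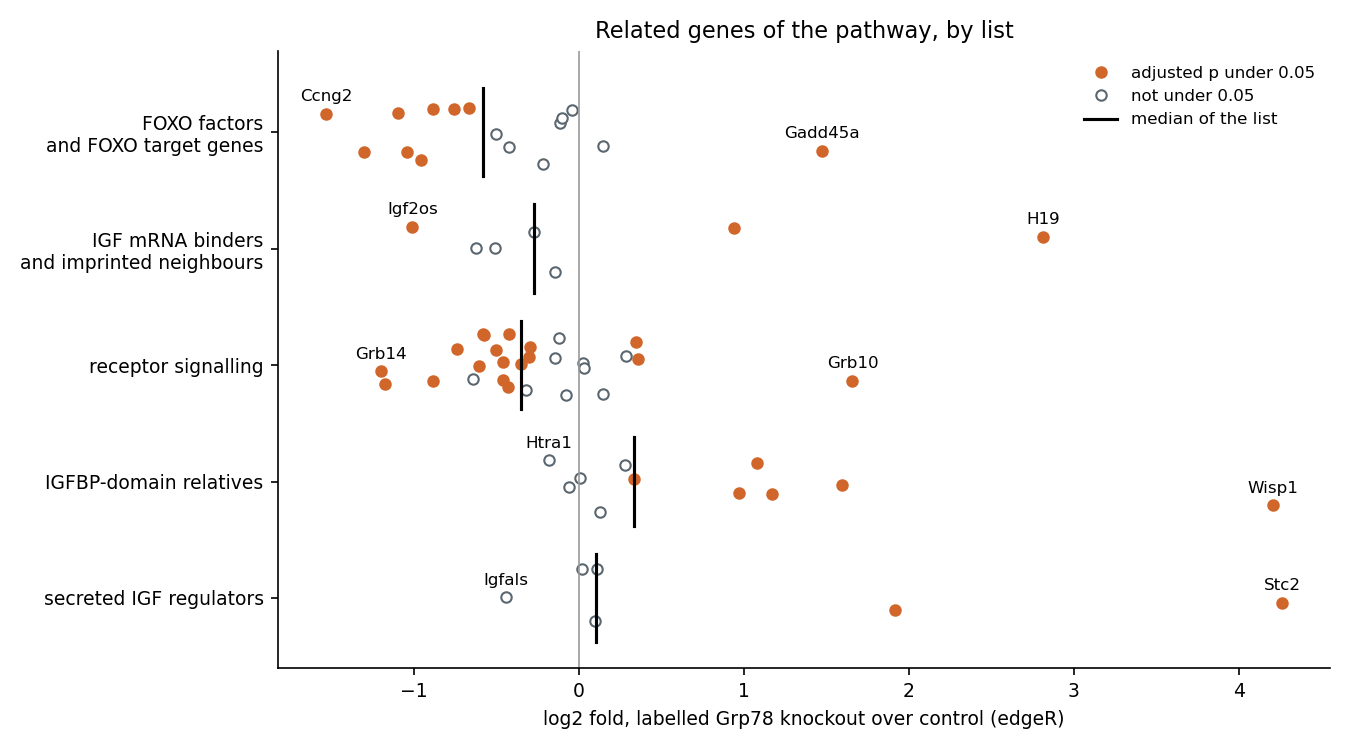
Each point is a tested gene of 5 lists related to the IGF axis, at its edgeR log2 fold (labelled Grp78 knockout over control); filled points have an adjusted p under 0.05, vertical lines mark list medians, and vertical scatter has no meaning. Stc2 (4.26) and Wisp1 (4.21) lie farthest to the right, and most filled points of the receptor signalling list lie left of 0.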

How the data were processed

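The authors deposited raw read counts per gene symbol, 1 column for each of the 6 libraries, from NEBNext Ultra RNA libraries sequenced as paired reads, per the labels' protocols. The submitters' processing notes name the build mm10 and the tool edgeR 3.7. The aligner, annotation and read assignment were each not given in the sources used here. Genes with 2 counts outnumbered genes with 1 by 1.63 to 1.76 times, as happens when both mates of a fragment are counted, so counting error is larger than the counts imply. The kit does not state strand.

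Groups came from sample titles. Genes passing filterByExpr were tested with edgeR 4.0.16 (R 4.3.3; TMM, robust quasi-likelihood F test, group as the only term), with Benjamini-Hochberg adjustment over all 18849. A gene was called, or said to rise or fall, at an adjusted p under 0.05. CPM values use TMM library sizes; the SE is the log2 fold over the square root of F. The script was tested on simulated counts. Coordinates, exon lengths and overlaps are from GENCODE M21 (mm10). Members and lists were chosen with earlier results of these data known. Named by rule were the 10 members, Hspa5, 10 preset pathway genes, the 4 genes of each related list with the lowest adjusted p, and the 3 nearest profiles of each member. Others named were chosen after their values were seen. Itgam, on the leukocyte list, was not analysed here.

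Same-numbered libraries deviated together (correlation of deviations from group means across genes 0.35, 0.20 and 0.329). This may be pairing that the main fit left out, although no label explains the numbers. Across groups, libraries 1 and 2 with unlike numbers gave 0.154 and 0.171, and libraries 3 gave -0.35 to -0.211 with the rest. Replicates all differed beyond sampling noise (8.07 to 171 chi-square per gene, counts halved). The alternatives tried were DESeq2 1.42.0, limma-voom (limma 3.58.1), 2 scalings, 2 filters, the replicate block and leaving out libraries.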

Additional observations from a re-analysis of the deposited data

How the results depend on the processing

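The count of IGF axis genes that rose was 2 to 4 over 14 alternatives, against 3 as reported. The count that fell was 5 as reported, 3 with library-size scaling and 3 to 6 with 1 library left out. Over all genes tested, 6938 were called, 3706 to 8548 with 1 library left out and 10581 without both libraries numbered 3. With library-size scaling 82.2% of calls were higher, and with upper-quartile factors 59.2%, against 48.9%. The log2 fold of Igf1r was 0.11 with library-size scaling, the only sign change among the 10 genes. Igf1, Igf2, Igfbp4, Igfbp6 and Igfbp7 kept direction and call under every alternative that tested them, and Igf1 was not tested under a filter at a mean of 5 CPM. Igfbp2 had -0.152 without both libraries numbered 3 and -0.136 to 0.26 with 1 library left out, and Stc1 -0.0636 to 0.0739, with -0.000216 without library 1 labelled knockout. Of the 7 tested mRNA binders and imprinted neighbours, 0 to 2 rose and 0 to 3 fell over the alternatives. Of the 6 secreted regulators, 1 or 2 rose and 0 or 1 fell. Igfals fell without library 3 labelled knockout (edgeR adjusted p = 0.0459) and without both libraries numbered 3 (edgeR adjusted p = 0.0298). The filter at 5 CPM tests fewer genes. The cause of the other changes was not tested. With the replicate block 3 members were higher and 5 lower, as without it, and among the pathway genes named by rule it changed only the calls of Irs1 and Airn. Depth limits Igfbp1, Igf2os, Igf2bp1, H19 and Pappa, all at under 2 CPM in every library, and Wisp1 in controls (0.0591 to 0.184 CPM).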
